A study of Mus musculus with 12 samples.

Results

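The D cyclins, the inhibitors of the cyclin-dependent kinases they activate, and the pocket proteins that these kinases phosphorylate were followed through neural differentiation of mouse embryonic stem cells (ESC) with and without knockdown of Jarid1b. The members were 10 genes chosen by symbol: the D cyclins Ccnd1, Ccnd2 and Ccnd3, the kinase inhibitors Cdkn1b, Cdkn2a, Cdkn2b, Cdkn2c and Cdkn2d, and the pocket protein genes Rb1 and Rbl1. Probe sets with a single gene symbol were found for 9 of the 10, 1 probe set for each, among 18784 genes in all. Cdkn2d was not analysed here.

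RNA was measured on 12 Affymetrix mouse gene arrays, 3 in each of 4 groups. The ESC were of the feeder-independent line E14TG2a.4, grown on gelatin with serum and LIF, and carried a lentiviral PLKO.1 vector with either a scrambled shRNA (control ESC) or 1 Jarid1b shRNA (knockdown ESC). All cells were exposed to virus for 16 h and selected with puromycin from 48 h after transduction. Neural progenitor cells (NPC) were derived in culture from ESC and formed the control NPC and knockdown NPC groups, and the labels give every group, controls included, the same vector and puromycin steps. The labels name 1 line and no second Jarid1b shRNA, do not say that a clone was picked, and do not say whether the 3 arrays of a group came from separate cultures, so the p-values speak only of how these arrays vary, and that variation may be technical.

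D-type cyclins are the part of the cell cycle machinery that responds to growth signals: they bind Cdk4 and Cdk6, and the active kinases phosphorylate the retinoblastoma protein and its relatives, which then release E2F transcription factors and let the cell pass from G1 into S phase. The Ink4 proteins, encoded by Cdkn2a to Cdkn2d, block Cdk4 and Cdk6 directly, and Cdkn1b encodes p27, which mainly restrains Cdk2 complexes. Mouse ESC are known for a short G1 phase in which this control is weak, and neural progenitors for a G1 phase that lengthens as they approach neurogenesis.

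Values are log2 expression levels after RMA, an array method that corrects background, equalizes the arrays' distributions and combines the probes of a gene. Each change is the difference between the log2 means of 2 groups, given with its standard error (SE) from limma, and the words rose and fell are kept for genes with an adjusted p under 0.05 over all 18784 genes. The arrays' lower quartiles lay between 5.84 and 6.11, and arrays of a group correlated at 0.992 to 0.997 across genes. Levels are set beside each other only within a gene, since probe sets differ in response. Kdm5b, the current symbol of Jarid1b and the target of the shRNA, fell by 1.73 ± 0.11 (SE) in knockdown ESC (adjusted p = 1.82e-05) and by 0.76 ± 0.11 (SE) in knockdown NPC (adjusted p = 0.00524).

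The cell states were checked against marker lists of 8 genes each, averaged on each array. ESC markers such as Pou5f1 and Nanog averaged 12.27 to 12.42 on ESC arrays and 7.10 to 8.72 on NPC arrays, and 8 of 8 fell from ESC to NPC in control and in knockdown cells. Neural progenitor markers such as Pax6 and Nes averaged 8.45 to 8.94 on ESC arrays and 10.79 to 11.06 on NPC arrays, and 8 of 8 rose in both. Neuronal markers such as Tubb3 and Dcx averaged 8.32 to 8.59 on ESC arrays and 10.09 to 10.32 on NPC arrays, and 7 of 8 rose and 1 fell in both. The values have no true zero, so no marker can be called absent.

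The clearest differences among the members lay between the cell states, above all in Ccnd2. From control ESC to control NPC, 5 of 9 members rose (Ccnd2, Cdkn1b, Cdkn2c, Rb1 and Rbl1) and 0 fell, where 48.6% of all genes were called (23.5% rose and 25.1% fell). With the replicate number as a block in the 6 control arrays 4 of 9 rose, and without the block in those arrays also 4, Rbl1 being the one not called. In knockdown cells 3 of 9 rose (Ccnd2, Cdkn2c and Rb1) and 1 fell (Ccnd3), where 48.8% of all genes were called (23.8% rose and 25% fell). Knockdown in ESC lowered 1 of 9 members, Ccnd2, where 5.21% of genes were called (1.84% rose and 3.37% fell). Knockdown in NPC changed 0 of 9 (1 at an unadjusted p under 0.01, Cdkn2a, and 2 under 0.05, Cdkn2a and Ccnd3), where 1.03% were called (0.82% higher and 0.213% lower). No member's knockdown effect differed between NPC and ESC at an adjusted p under 0.05 (2 of 9, Ccnd2 and Ccnd3, at an unadjusted p under 0.05), where 1.42% of genes were called (1.18% higher and 0.245% lower in NPC). These percentages are at an adjusted p under 0.05. No share of all genes at an unadjusted p is given, so the unadjusted counts here and below have no background beside them. Shares of members this near the background of all genes, or resting on 1 gene, say little of the family as a whole. The members are taken in turn by role.

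**Figure D1:**
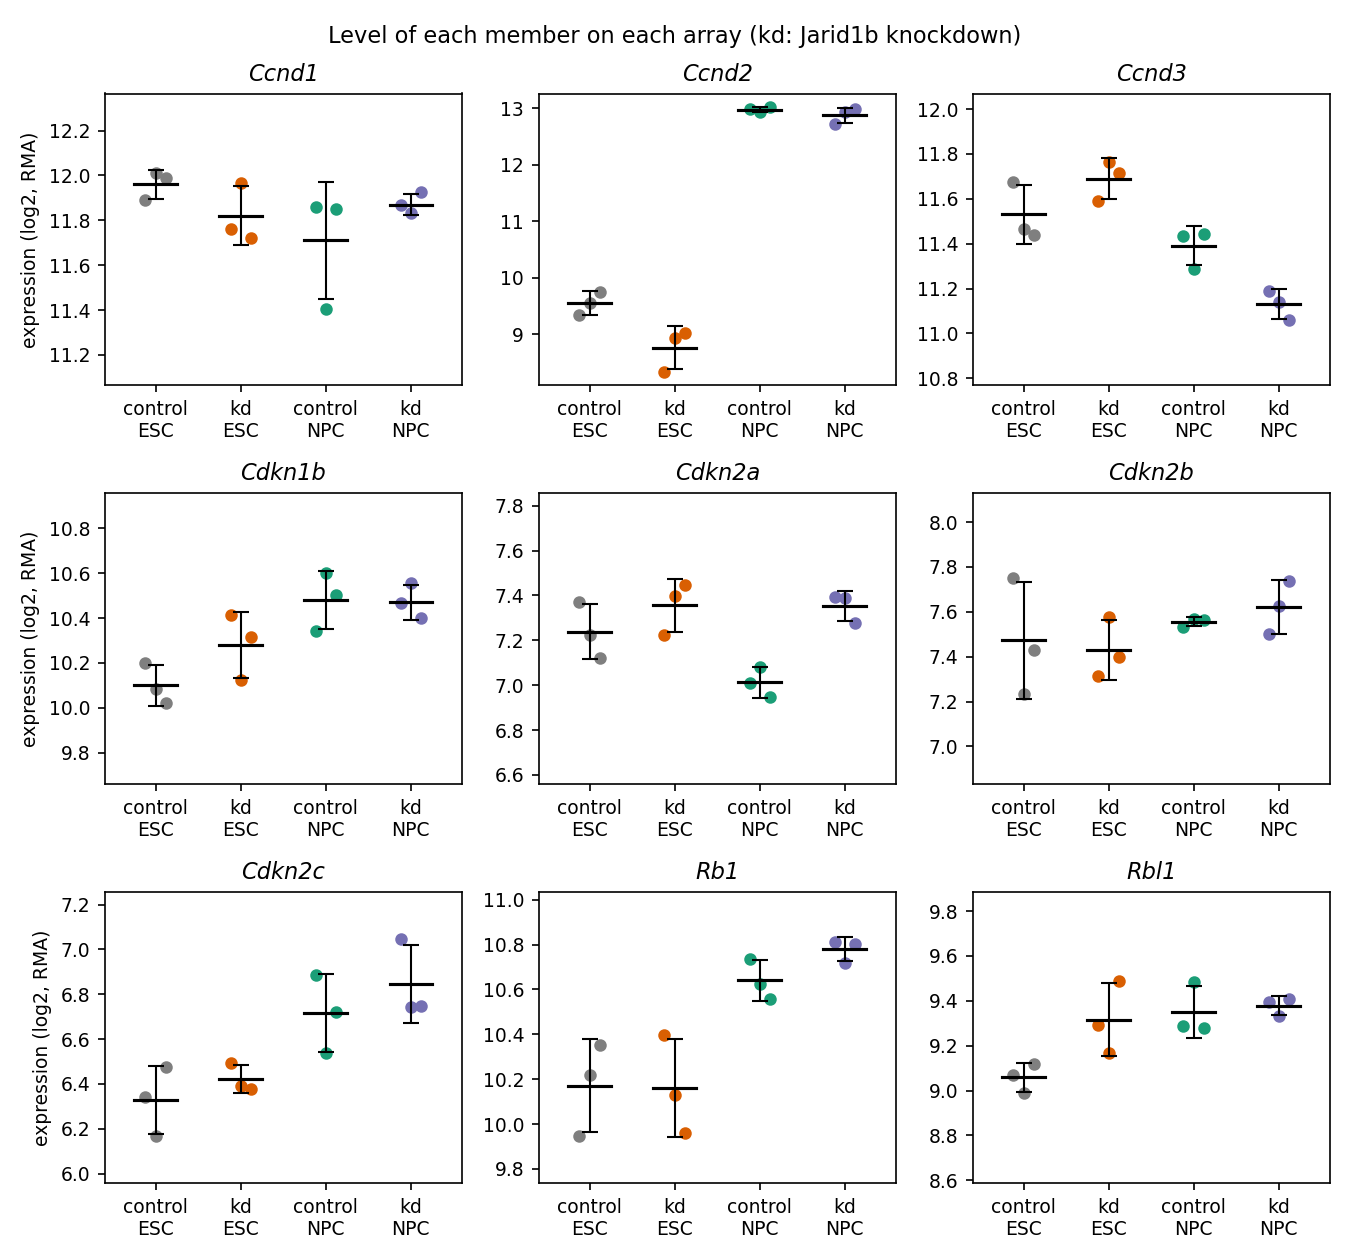
Expression (log2 after RMA, vertical axis) of the 9 measured members on each of the 12 arrays, by group (kd, Jarid1b knockdown); points are arrays, the wide line is the group mean and the bar its SD (n = 3). All panels span the same range except Ccnd2, whose NPC arrays (12.73 to 13.03) stand far above its ESC arrays (8.33 to 9.75).

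Ccnd2 encodes cyclin D2, a D cyclin of dividing neural progenitors in the developing cortex. It lay at 9.33, 9.56 and 9.75 on the control ESC arrays and at 8.33, 8.93 and 9.02 on the knockdown ESC arrays. On the control NPC arrays it lay at 12.99, 12.93 and 13.03, and on the knockdown NPC arrays at 12.73, 12.93 and 12.99. All 3 knockdown ESC arrays were below all 3 control ESC arrays, and every NPC array was above every ESC array, while the 2 NPC groups overlapped.

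Between the states, Ccnd2 rose by 3.43 ± 0.16 (SE) in control cells, or 10.8-fold (adjusted p = 1.68e-09), and by 4.12 ± 0.16 (SE) in knockdown cells, or 17.4-fold (adjusted p = 3.83e-10). Knockdown lowered Ccnd2 in ESC from 9.55 ± 0.21 to 8.76 ± 0.38 (SD, n = 3). The change was -0.79 ± 0.16 (SE), 1.72-fold lower (adjusted p = 0.0161). Ccnd2 in NPC averaged 12.98 ± 0.051 in control and 12.88 ± 0.14 in knockdown cells (SD, n = 3), and the change of -0.10 ± 0.16 (SE) was not called (adjusted p = 0.953, 95% interval -0.45 to 0.25). The effect in NPC was higher than that in ESC by 0.68 ± 0.23 (SE), which did not pass the test (adjusted p = 0.170). Ccnd2 thus stood in the order control NPC, knockdown NPC, control ESC, knockdown ESC, and the first pair does not differ beyond its spread.

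The ESC call depends on control ESC replicate 3: without it the change was -0.68 (adjusted p = 0.0937). From the 6 ESC arrays alone the adjusted p was 0.0608. The adjusted p was under 0.05 in 20 of 22 alternatives, in a range of 0.00322 to 0.0937. Counted among these 20 is the stricter threshold of 0.01, which the change (adjusted p = 0.0161) did not pass. Lists of other cells' markers were followed in the same arrays. Neural progenitor markers averaged 8.75 to 8.94 on control and 8.45 to 8.60 on knockdown ESC arrays, with 2 of 8 lower by the test (6 of 8 negative and 2 of 8 positive in all). Neuronal markers averaged 8.56 to 8.59 and 8.32 to 8.54, with 3 of 8 lower by the test (4 of 8 negative and 4 of 8 positive in all). The ESC list itself averaged 12.27 to 12.31 on control and 12.36 to 12.42 on knockdown ESC arrays, with 0 of 8 called (6 of 8 positive and 2 of 8 negative). Of the other lists, 1 of 8 fibroblast markers fell and 1 of 8 endothelial and 1 of 6 germ cell markers rose. Their part in the change of Ccnd2 was not tested, and in bulk RNA fewer cells of a type and less RNA per cell cannot be told apart.

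Ccnd1 encodes cyclin D1, the D cyclin most often tied to growth factor signals. It lay at 11.89, 12.01 and 11.99 in control ESC, 11.76, 11.97 and 11.72 in knockdown ESC, 11.86, 11.41 and 11.85 in control NPC, and 11.87, 11.83 and 11.93 in knockdown NPC. All 12 arrays fell within a narrow band but for control NPC replicate 2, the lowest. Control NPC arrays were all below control ESC arrays, and the knockdown groups overlapped their controls in both states. Its knockdown changes were -0.15 ± 0.12 in ESC and 0.17 ± 0.12 in NPC (SE), neither called (adjusted p = 0.560 and 0.800). Between the states it changed by -0.26 ± 0.12 in control (adjusted p = 0.0946) and 0.058 ± 0.12 in knockdown cells (SE, adjusted p = 0.718). With 95% intervals of -0.52 to 0.00039 and -0.20 to 0.32, a change from ESC to NPC of the size seen for Ccnd2 lies outside what these arrays allow for Ccnd1.

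Ccnd3 encodes cyclin D3, the D cyclin known for its role in lymphocytes and muscle. Its arrays read 11.68, 11.47 and 11.44 in control ESC and 11.59, 11.77 and 11.71 in knockdown ESC. They read 11.44, 11.29 and 11.44 in control NPC and 11.19, 11.14 and 11.06 in knockdown NPC. The knockdown NPC arrays were the 3 lowest of the 12, without overlap with control NPC, and the knockdown ESC arrays overlapped control ESC.

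In the passage to NPC, Ccnd3 fell in knockdown cells by 0.56 ± 0.092 (SE), from 11.69 ± 0.090 to 11.13 ± 0.066 (SD, n = 3), a 1.47-fold fall (adjusted p = 0.000184). In control cells the change was -0.14 ± 0.092 (SE, adjusted p = 0.248). The knockdown changes were 0.16 ± 0.092 in ESC (adjusted p = 0.373) and -0.26 ± 0.092 in NPC (SE, adjusted p = 0.309), and their difference of -0.42 ± 0.13 (SE) was not called (adjusted p = 0.139). Only under array weights, of the alternatives run, was that difference called (-0.52, adjusted p = 0.022, against a range of 0.022 to 0.342). So the fall of Ccnd3 from ESC to NPC is not shown to differ between knockdown and control cells.

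**Figure D2:**
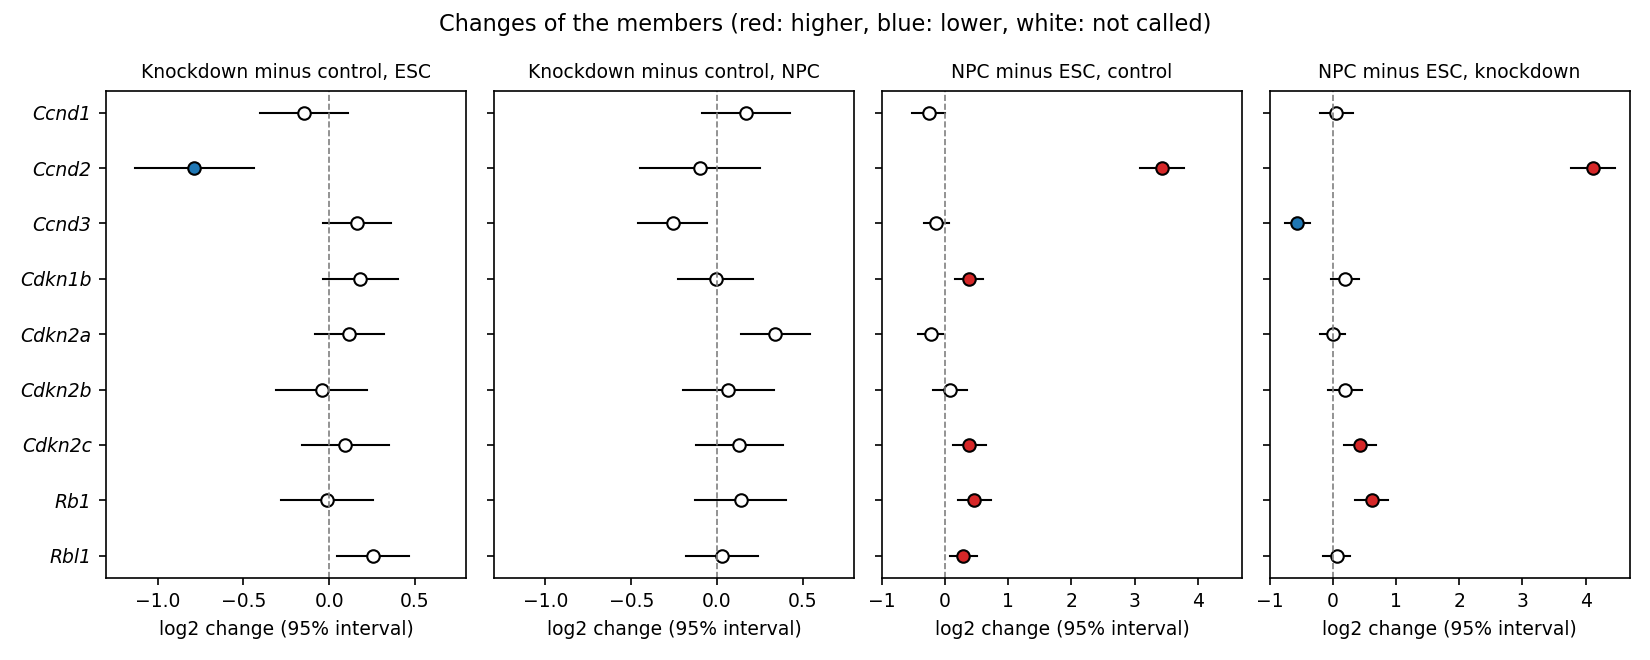
Log2 change of each member (points, group means of 3 arrays) with its 95% interval (lines) in 4 comparisons; red points rose, blue points fell and white points were not called at an adjusted p under 0.05. The 2 left panels share an axis range and the 2 right panels another; Ccnd2 stands at 3.43 and 4.12 on the right while all other members lie between -0.56 and 0.61 there.

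Among the inhibitors, Cdkn1b encodes p27, which accumulates in cells that leave the cycle. Its arrays read 10.20, 10.09 and 10.02 in control ESC and 10.41, 10.12 and 10.32 in knockdown ESC. They read 10.34, 10.60 and 10.50 in control NPC and 10.47, 10.56 and 10.40 in knockdown NPC. Control ESC arrays were below all NPC arrays, and knockdown ESC overlapped control ESC, control NPC and knockdown NPC. Cdkn1b rose from control ESC to control NPC by 0.38 ± 0.10 (SE, 1.30-fold, adjusted p = 0.00637). In knockdown cells the change was 0.19 ± 0.10 (SE, adjusted p = 0.137), and the difference between these changes, -0.19 ± 0.14 (SE), was not called (adjusted p = 0.568). Its knockdown changes were 0.18 ± 0.10 in ESC (adjusted p = 0.360) and -0.0077 ± 0.10 in NPC (SE, adjusted p = 0.992).

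Cdkn2a is a double gene: from separate first exons it makes the Ink4a protein, an inhibitor of Cdk4 and Cdk6, and the Arf protein, which stabilizes p53, and the exon for Arf lies upstream. The gene has 1 probe set here, so its value does not tell the transcripts apart. The 250 bases before each of the gene's starts in RefSeq (GRCm38.p6, minus strand, chr4:89294620-89294869 for the upstream start and chr4:89282193-89282442 for the downstream one) are shown because they are separate control regions behind that 1 value, 5′ to 3′, with a match to the E2F-type motif TTTCCCGC in capitals.
Cdkn2a upstream start: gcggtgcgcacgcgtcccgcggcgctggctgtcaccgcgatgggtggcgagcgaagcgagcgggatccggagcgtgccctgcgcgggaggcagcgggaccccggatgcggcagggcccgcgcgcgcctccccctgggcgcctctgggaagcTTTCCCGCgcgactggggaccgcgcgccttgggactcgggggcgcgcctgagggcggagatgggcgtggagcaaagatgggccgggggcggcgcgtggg
Cdkn2a downstream start: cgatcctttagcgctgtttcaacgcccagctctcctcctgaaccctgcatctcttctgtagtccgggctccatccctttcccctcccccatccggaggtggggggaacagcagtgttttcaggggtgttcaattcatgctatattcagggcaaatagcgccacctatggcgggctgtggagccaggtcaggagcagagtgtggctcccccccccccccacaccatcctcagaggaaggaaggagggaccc
The upstream window is richer in G and C, at 78.4% against 60.0%, and its motif begins 99 bases before the start, while the downstream window holds none of the motifs searched. Those were the 3 E2F-type motifs TTTCGCGC, TTTGGCGC and TTTCCCGC and the TATA motif TATAAA, on both strands. At least 1 of the 3 E2F-type motifs occurs in 1.53% of 32817 windows of this length, and TATAAA in 12.4%. A match is a run of letters and not a measured binding site.

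Cdkn2a lay at 7.37, 7.22 and 7.12 in control ESC, 7.22, 7.40 and 7.45 in knockdown ESC, 7.01, 7.08 and 6.95 in control NPC, and 7.39, 7.39 and 7.28 in knockdown NPC. The control NPC arrays were the 3 lowest of the 12, and the other groups overlapped each other. In NPC the mean was 7.01 ± 0.068 in control and 7.35 ± 0.066 in knockdown cells (SD, n = 3), a difference of 0.34 ± 0.093 (SE, 1.27-fold, 95% interval 0.14 to 0.54) in 3 of 3 arrays. It had the smallest p among the members in that comparison, but did not pass the test over all genes (adjusted p = 0.127, range 0.0921 to 0.420 over the alternatives). In ESC the difference was 0.12 ± 0.093 (SE, adjusted p = 0.546). The change between the states was -0.23 ± 0.093 in control (adjusted p = 0.0600) and -0.0023 ± 0.093 in knockdown cells (SE, adjusted p = 0.986), the former called without control ESC replicate 3 (-0.28, adjusted p = 0.0382, in a range of 0.0382 to 0.203). In knockdown NPC other cells' markers moved too. ESC markers averaged 7.88 to 8.72 against 7.10 to 7.77 in control NPC (2 of 8 rose). Of the germ cell markers 6 of 6 rose (8.28 to 9.08 against 6.25 to 6.91). By the test 4 of 8 endothelial and 1 of 8 fibroblast markers fell, and in each list 8 of 8 were negative. The endothelial list averaged 6.11 to 6.49, below every control NPC array. So did the fibroblast list, at 6.745 to 6.925 against 7.247 to 7.599. Neuronal markers averaged 10.09 to 10.17 against 10.18 to 10.32, with 0 of 8 called (6 of 8 negative and 2 of 8 positive). The part of all these markers in the values of Cdkn2a and Ccnd3 in NPC was not tested.

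Cdkn2b, which encodes the Ink4b inhibitor and neighbours Cdkn2a on chromosome 4, varied little between groups. Its arrays read 7.75, 7.24 and 7.43 in control ESC, 7.32, 7.58 and 7.40 in knockdown ESC, 7.53, 7.57 and 7.56 in control NPC, and 7.50, 7.63 and 7.74 in knockdown NPC. All 4 groups overlapped one another, and the spread was widest in control ESC (SD 0.26, n = 3). No change was called. The knockdown differences were -0.043 ± 0.12 in ESC (adjusted p = 0.892) and 0.066 ± 0.12 in NPC (adjusted p = 0.961), and the differences between states 0.083 ± 0.12 in control (adjusted p = 0.631) and 0.19 ± 0.12 in knockdown cells (SE, adjusted p = 0.219).

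Cdkn2c encodes the Ink4c inhibitor, known from dividing progenitors of the nervous system. Its arrays read 6.34, 6.17 and 6.47 in control ESC, 6.49, 6.39 and 6.38 in knockdown ESC, 6.89, 6.54 and 6.72 in control NPC, and 7.05, 6.75 and 6.75 in knockdown NPC. Every NPC array was above every ESC array, and knockdown overlapped control in both states. The ESC values of 6.17 to 6.49 lie just above the arrays' lower quartiles. Cdkn2c rose from ESC to NPC by 0.39 ± 0.12 (SE, 1.31-fold, adjusted p = 0.0141) in control and by 0.43 ± 0.12 (SE, 1.34-fold, adjusted p = 0.00841) in knockdown cells. The first of these calls did not hold when control ESC replicate 2 (adjusted p = 0.0660) or control NPC replicate 1 (adjusted p = 0.0678) was left out, in a range of 0.00587 to 0.0678. Knockdown differences were 0.093 ± 0.12 in ESC (adjusted p = 0.732) and 0.13 ± 0.12 in NPC (SE, adjusted p = 0.880).

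Rb1 encodes the retinoblastoma protein, the main brake on E2F. It lay at 9.95, 10.22 and 10.35 in control ESC, 10.40, 10.13 and 9.96 in knockdown ESC, 10.74, 10.63 and 10.56 in control NPC, and 10.81, 10.72 and 10.80 in knockdown NPC. All NPC arrays were above all ESC arrays, and the ESC groups coincided. Rb1 rose from ESC to NPC by 0.47 ± 0.12 (SE, 1.38-fold, adjusted p = 0.00636) in control and by 0.61 ± 0.12 (SE, 1.53-fold, adjusted p = 0.000951) in knockdown cells, and both calls held under every alternative run, with adjusted p up to 0.0301 and 0.0061. Knockdown differences were -0.011 ± 0.12 in ESC (adjusted p = 0.977) and 0.14 ± 0.12 in NPC (SE, adjusted p = 0.880).

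Rbl1 encodes p107, a relative of the retinoblastoma protein that binds the repressor E2Fs and is itself transcribed from an E2F-controlled promoter. The 250 bases before its start in RefSeq (GRCm38.p6, minus strand, chr2:157204535-157204784) are shown for that reason, 5′ to 3′, with a match to TTTCGCGC in capitals, 18 bases before the start.
Rbl1: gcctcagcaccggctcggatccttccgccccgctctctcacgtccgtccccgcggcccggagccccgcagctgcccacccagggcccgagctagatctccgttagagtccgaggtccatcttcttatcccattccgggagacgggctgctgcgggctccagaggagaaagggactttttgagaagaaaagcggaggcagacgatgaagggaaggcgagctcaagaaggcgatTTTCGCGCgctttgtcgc
That motif, on either strand, occurs in 0.256% of the 32817 windows of this length. Windows were at hand for 6 of the 9 measured members, and of these Rbl1 and Cdkn2a alone held one of the E2F-type motifs searched; those of Ccnd3, Cdkn1b, Cdkn2b and Cdkn2c did not hold these letters.

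Rbl1 lay at 9.07, 8.99 and 9.12 in control ESC, 9.29, 9.17 and 9.49 in knockdown ESC, 9.29, 9.48 and 9.28 in control NPC, and 9.40, 9.33 and 9.41 in knockdown NPC. Control ESC arrays were the 3 lowest of the 12, and the other 3 groups overlapped. Between the states it rose in control cells by 0.29 ± 0.097 (SE, 1.22-fold, adjusted p = 0.0228) and changed by 0.063 ± 0.097 in knockdown cells (SE, adjusted p = 0.622), and the difference of -0.23 ± 0.14 (SE) was not called (adjusted p = 0.459). The rise had an adjusted p under 0.05 in 18 of 23 alternatives. Counted among these 18 is the stricter threshold of 0.01, which the rise (adjusted p = 0.0228) did not pass. It was kept with the replicate number as a block in all 12 arrays (adjusted p = 0.031) and not called in the 6 control arrays alone, without the block (adjusted p = 0.0515) or with it (adjusted p = 0.0551). Nor was it called with array weights (adjusted p = 0.063), without control ESC replicate 2 (adjusted p = 0.0770) or control NPC replicate 2 (adjusted p = 0.0848), in a range of 0.016 to 0.0848. Knockdown ESC arrays were higher than control in 3 of 3, by 0.26 ± 0.097 (SE, 95% interval 0.047 to 0.47), which did not pass the test over all genes (adjusted p = 0.155); this comparison and the rise between the states share the control ESC arrays. In NPC the difference was 0.028 ± 0.097 (SE, adjusted p = 0.983).

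Counted by overlap alone, the arrays of the 2 groups were separate for 2 of 9 members in ESC knockdown (Ccnd2 and Rbl1), where 24.2% of all genes were, and for 2 of 9 in NPC knockdown (Ccnd3 and Cdkn2a), where 14.2% were. Between the states they were separate for 7 of 9 members in control cells, beside 52.3% of genes, and for 4 of 9 in knockdown cells, beside 62.4%. The members' median change was 0.093 in ESC knockdown and 0.066 in NPC knockdown, against 0.017 and 0.0037 over all genes. Between the states it was 0.29 in control and 0.19 in knockdown cells, against -0.042 and -0.068.

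Over the 12 arrays the members did not follow 1 pattern. Ccnd2 and Rb1 correlated at 0.862, Rb1 and Cdkn2c at 0.852, and Ccnd3 and Rb1 at -0.878. These values describe all 12 arrays together, ESC and NPC, and were not computed within a state. The genes most like Ccnd2 over the arrays were Ubtd2 (r = 0.998), Flrt2 (0.997) and Rnf217 (0.997), but 2576 genes correlated with it above 0.9. Those most like Rb1 were Fgfr1op2 (0.946), Pwwp2a (0.945) and Fgfr2 (0.944), and those most like Ccnd3 were Nfe2 (0.949), Gabrd (0.918) and Rasa4 (0.907), with 208 and 8 genes above 0.9.

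The other regulators of the G1/S step, 31 genes and all measured, hold the partner kinases, the E cyclins, the Cip/Kip inhibitors Cdkn1a and Cdkn1c, the E2F factors and the subunits of the DREAM repressor complex. From ESC to NPC 6 rose and 7 fell in control cells, and 13 rose and 5 fell in knockdown cells. The changes with the smallest p were those of Mybl2, a mitotic gene activator high in ESC (-2.71 ± 0.079 in control and -2.66 ± 0.079 in knockdown cells), and Cdkn1c, the p57 inhibitor (2.48 ± 0.14 and 2.95 ± 0.14). Next came Ccne1, cyclin E1, which drives Cdk2 at S phase entry (-1.22 ± 0.082 and -0.74 ± 0.082), and E2f6, a repressor E2F (0.85 ± 0.12 and 0.95 ± 0.12, all SE). Adjusted p for these 8 changes lay between 2.55e-11 and 4.32e-05. Of the catalytic partners of the D cyclins, Cdk4 rose by 0.22 ± 0.074 (adjusted p = 0.0251) and Cdk6 by 0.50 ± 0.099 (adjusted p = 0.000762) in knockdown cells (SE), chosen after their values were seen. Neither was called in control cells. In the reported fit the difference between the changes in knockdown and control cells was called for 0 of the 31 regulators. A rise particular to knockdown cells is thus not shown.

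Genes of S phase with known E2F sites, 16 measured of 18, were lower in NPC: 0 rose and 14 fell in control cells, 1 rose and 11 fell in knockdown cells, with median changes of -0.52 and -0.33. Orc1, a subunit of the origin recognition complex, fell by 2.71 ± 0.13 in control and by 2.32 ± 0.13 in knockdown cells, and the helicase subunit gene Mcm3 by 0.86 ± 0.077 and 0.64 ± 0.077 (SE, adjusted p at most 1.21e-05). The polymerase gene Pola1 fell by 1.31 ± 0.10 and 1.00 ± 0.10, and Cdt1, a licensing factor, by 0.98 ± 0.087 and 0.66 ± 0.087 (SE, adjusted p at most 2.6e-05). Among other lists in control cells, 7 of 8 neuronal markers rose between the states and 1 fell. Of the 8 endothelial markers 6 rose and 2 fell, and of the 8 fibroblast markers 6 rose and 1 fell. In knockdown cells 7 neuronal markers rose and 1 fell, 1 endothelial marker rose and 2 fell, and 1 fibroblast marker rose and 0 fell. Of 6 germ cell markers 1 rose and 5 fell in control cells, and 1 rose and 4 fell in knockdown cells. The part of these markers in the members' and lists' changes between the states was not tested. The 1 S phase gene that rose, in knockdown cells, was Rrm1, a subunit of ribonucleotide reductase (0.55 ± 0.087, SE, adjusted p = 0.000142).

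Under knockdown the same lists gave small values. In ESC 0 rose and 1 fell of the 31 regulators, namely Ccnh, a subunit of the Cdk-activating kinase (-0.39 ± 0.10, SE, adjusted p = 0.0465), and 0 rose and 1 fell of the 16 S phase genes, Rrm1 (-0.34 ± 0.087, SE, adjusted p = 0.0446). Each list lost its call with the replicate block, and in 9 of 12 fits that left out 1 array, control ESC replicates 2 and 3 and each knockdown ESC array among them. With array weights 9 regulators and 3 S phase genes fell and 1 regulator rose. That setting called 2886 of all 18784 genes in this comparison, against 979 in the reported fit. In NPC limma called 0 of 31 and 0 of 16 (4 and 2 at an unadjusted p under 0.05), with the smallest p for Cdkn1a, the p21 inhibitor (0.41 ± 0.12, SE, adjusted p = 0.149), and Cdt1 (0.24 ± 0.087, SE, adjusted p = 0.339). By sign alone, 22 of 31 regulators and 14 of 16 S phase genes had negative values in knockdown ESC, and 21 of 31 and 16 of 16 positive values in knockdown NPC, where 53.6% and 51.1% of all genes were positive. The medians were -0.14 and -0.10 in ESC and 0.091 and 0.073 in NPC. Without control NPC replicate 2 the median of the regulators in NPC was 0.032, with 20 of 31 positive, and 12 of 16 S phase genes were positive. With median centring 12 of 16 S phase genes were positive in NPC too, with a median of 0.044. The differences between NPC and ESC effects had 0 calls in either list by limma (8 and 5 at an unadjusted p under 0.05), with Ccne1 (0.48 ± 0.12, SE, adjusted p = 0.0635) and Rrm1 (0.35 ± 0.12, SE, adjusted p = 0.192) at the smallest p. Array weights called 3 regulators and 955 of all genes for this difference, against 267 genes in the reported fit. A trended, robust prior called 1 regulator and 323 genes.

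**Figure D3:**
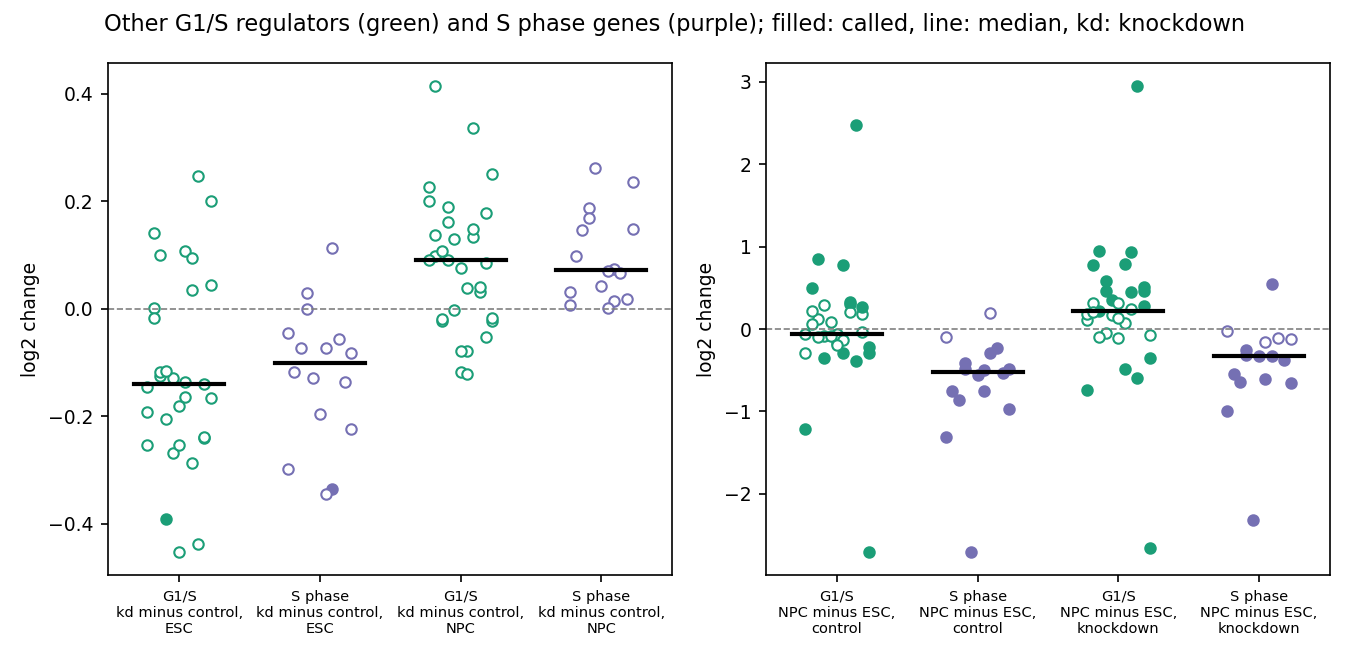
Log2 changes of 31 other G1/S regulators (green) and 16 S phase genes with E2F sites (purple), 1 point per gene, in the knockdown comparisons (left) and between the cell states (right, wider axis); filled points were called at an adjusted p under 0.05 and the black line is the list's median. Medians lie at -0.14 and -0.10 for knockdown ESC, 0.091 and 0.073 for knockdown NPC (the former 0.032 without control NPC replicate 2), and at -0.52 and -0.33 for the S phase genes from ESC to NPC.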

How the data were processed

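The deposited values are log2 expression levels of 21212 probe sets on 12 arrays; per the submitters' processing notes the authors used affy, RMA and limma (versions and genome build not given in the sources used here). Platform annotation gave 18786 probe sets 1 symbol, 6 several and left 2420 unnamed; 18775 matched a RefSeq table by Entrez ID with 0 symbols changed. The probe set with the highest mean stood for a gene, which left 18784. A group-means model of all 12 arrays was fitted with limma 3.58.1 in R 4.3.3 (lmFit, contrasts.fit, eBayes, 8 residual and 4.81 prior degrees of freedom); p-values are two-sided and Benjamini-Hochberg adjusted over the 18784 genes. Rows without 1 symbol entered the fit but not the adjustment. No values have detection calls; the number of arrays limits the precision. The steps were tested on simulated data with independent noise. There, recovery of calls was required only for changes larger than any seen here in members other than Ccnd2.

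Members and lists were chosen with earlier results of these data known. Named were all members, up to 4 genes with the smallest p per list and contrast, and the 3 genes most correlated with each of the 3 members of widest range. Promoter windows are RefSeq's for GRCm38.p6, cut to 250 bases before the start. Titles give the replicate numbers. After subtracting group means, control arrays sharing a number in ESC and NPC had correlations of 0.266, 0.286 and 0.334. Each is over 0.1, the level taken here as a sign of pairing. Arrays with different numbers were not set beside them, so pairing is not established. The values printed come from the fit without the block, and blocked values stand beside them where a call changes. The remaining comparisons had at least 1 pair below 0.1. Alternatives were the block, a low-value filter, a trended robust prior, array weights, centring, quantile normalization, probe set means, adjustment over all rows, a threshold of 0.01, 6 arrays alone and leaving out each array.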

Additional observations from a re-analysis of the deposited data

Results flagged for a closer look

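Kdm5b, the gene the shRNA targets, was singled out because its knockdown effect differed between the cell states by a test of the difference: the change in NPC was higher than that in ESC by 0.96 ± 0.16 (SE, limma, adjusted p = 0.0172). Its level was 12.41 in control ESC, 10.68 in knockdown ESC, 11.23 in control NPC and 10.47 in knockdown NPC. Leaving out control ESC replicate 3 gave an adjusted p of 0.0591 and leaving out knockdown NPC replicate 2 one of 0.0512, both above the threshold. No member of the cyclin, inhibitor and pocket protein set, and none of the G1/S, S phase or Polycomb genes listed, differed between the states in this way at an adjusted p under 0.05. Groups of 3 arrays are too small for a test of single outlying arrays.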

How the results depend on the processing

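Of the members' 45 changes (9 genes in 5 comparisons), every one called kept its sign in all alternatives run. The count of members called was 1 for knockdown in ESC, 0 at an adjusted p under 0.01 and 0 from the 6 ESC arrays alone, and 0 to 1 when single arrays were left out. From control ESC to control NPC it was 5, 3 at an adjusted p under 0.01, and 3 to 6 when single arrays were left out. For the difference of the knockdown effects it was 0, and 1 (Ccnd3) with array weights. With the replicate block in all 12 arrays these counts were 1, 5 and 0, so the block by itself changed no member's call. In the 6 control arrays Rbl1 was lost both without the block and with it, which left 4. Of the values under the alternatives 29 changed sign, 0 of them from changes that were called. With array weights Cdkn1b in NPC knockdown stood at 0.030, Cdkn2b in ESC knockdown at 0.014 and the Cdkn2c difference of effects at -0.019. With median centring that difference stood at -0.0023, Rb1 in ESC knockdown at 0.00083 and Rbl1 in NPC knockdown at -0.00017. With quantile normalization Rb1 in ESC knockdown stood at 0.019, and from knockdown ESC to knockdown NPC Cdkn2a stood at 0.017 and Rbl1 at -0.026. Leaving out single arrays, knockdown changes ranged from -0.077 to 0.052 for Cdkn1b and -0.0072 to 0.095 for Rbl1 in NPC, and from -0.16 to 0.096 for Cdkn2b and -0.13 to 0.090 for Rb1 in ESC. Differences of effects ranged from -0.03 to 0.23 for Cdkn2b and -0.063 to 0.12 for Cdkn2c. Changes from ESC to NPC ranged from -0.036 to 0.22 for Cdkn2b in control cells, and in knockdown cells from -0.068 to 0.043 for Cdkn2a and -0.012 to 0.15 for Rbl1. Over all genes, knockdown in ESC gave 979 calls, 2886 with array weights, 497 from 6 arrays and 193 to 1536 with single arrays left out. Knockdown in NPC gave 194, 29 from 6 arrays and 83 to 247 with single arrays left out. The difference of the knockdown effects gave 267 calls and 955 with array weights. The causes were not tested. The list medians under every setting were added after seeing the data.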

Other observations

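Polycomb proteins are known to silence the locus of Cdkn2a and Cdkn2b, and 5 genes that act there were listed. From control ESC to control NPC, Bmi1 rose by 1.60 ± 0.10 and Cbx8 by 1.31 ± 0.11, while Cbx7 fell by 2.23 ± 0.18 and Kdm2b by 0.60 ± 0.15 (SE, limma, adjusted p from 2.72e-08 to 0.00452). In knockdown cells Bmi1 rose by 1.98 ± 0.10 and Cbx8 by 1.04 ± 0.11, and Cbx7 fell by 1.72 ± 0.18 (SE, adjusted p from 4.11e-09 to 3.13e-06). Ezh2, the methyltransferase of the second Polycomb complex, was not called in either. Under knockdown Kdm2b fell in ESC by 0.73 ± 0.15 (SE, adjusted p = 0.0167), a call that ended in 4 of 12 fits without 1 array (control ESC replicate 2 or 3, knockdown ESC replicate 1 or 3) and from the 6 ESC arrays alone. By limma 0 of 5 were called in NPC (1 at an unadjusted p under 0.05), where Cbx7 had the smallest p (0.47 ± 0.18, SE, adjusted p = 0.358). Cdkn2a and Cdkn2b themselves passed the test in none of these 4 comparisons.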
